A study of Mus musculus with 8 samples.

Results

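mmu-miR-124, the miRNA that is best known for its abundance in neurons of the central nervous system, was followed through retinal neurons and Müller glia (MG) of the mouse. It is 1 of the 599 miRNA probes of the NanoString nCounter mouse panel, of which 566 were for mouse and 33 for viral miRNAs, and it was picked by its name, with earlier results of these data known. The probe was read in all 6 columns of the raw count table. Each column is 1 pooled RNA sample, so no condition had a replicate and no test between conditions was possible. The limits given below are 95% limits of counting error alone. Limits of a ratio pair the low end of one count with the high end of the other and are therefore wider than that.

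The mouse line, Rlbp-CreER: Stop f/f-tdTomato, is one in which tamoxifen turns on tdTomato through a Cre driven by the Rlbp1 promoter, active in MG and also in pigmented and ciliary epithelium, which were dissected away. Sorted tdTomato+ cells are called MG. The tdTomato- cells are called neurons, although this gate held every unlabelled retinal cell and, in the mouse retina, mostly rods. Adult mice gave 40 retinas and young mice, called P11 for postnatal day 11, gave 32 retinas, with tamoxifen in both. Each pool was split into MG and neurons. The titles of the young sorted samples name the same age range as the next sentence gives for the cultures. The cultured MG were grown from dissociated retinas of P11 or P12 mice in N-2, 10% fetal bovine serum and EGF, were passaged once, and were harvested after 8 or 14 days in vitro (DIV). They were not sorted. The labels give 20 retinas for each culture sample, while the paper describes the size of the culture pool otherwise. The 8 DIV and 14 DIV samples were parts of the same cultures. For the culture samples the sample titles and the age entries name opposite times. The titles were followed, which the column names of the raw table match, and every statement on 8 DIV or 14 DIV rests on them.

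miRNAs are short RNAs that guide Argonaute proteins to mRNAs through their seed, the bases near the 5′ end, and lower the output of those mRNAs. miR-124 is switched on when neural progenitors become neurons, where it represses mRNAs of non-neuronal and progenitor genes such as Ptbp1, a splicing repressor. Its genes are among the targets of REST, a repressor of neuronal genes outside neurons. In the retina miR-124 is found in the neuronal layers, photoreceptors included, and MG are the glia that span these layers.

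In the RefSeq annotation of GRCm38.p6 the miRNA has 3 loci, which 1 probe for the mature form cannot tell apart. Mir124a-1 lies at chr14:64590657-64590741 inside the lncRNA gene Mir124a-1hg. Mir124a-2 lies at chr3:17795662-17795770 inside the lncRNA gene Mir124-2hg and is overlapped by the miRNA gene Gm51272. Mir124a-3 lies at chr2:180894040-180894107, with no other annotated gene within 10000 bases.

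Of the miRNAs that the results set beside miR-124, those of 3 groups are shown with their sequences, because the fraction comparisons turn on them. The first are miR-183, miR-96 and miR-182, products of 1 cluster on chromosome 6 known from photoreceptors and other sensory cells. The second is miR-9, known from neural progenitors and glia. The third are miR-204 and miR-211, known from pigmented epithelium and lens, and miR-204 is also a miRNA of MG in the study's list. Their mature forms from RefSeq (GRCm38.p6) are shown 5′ to 3′ with bases 2 to 8, the seed, in capitals, taking the 5p arm for panel names that give no arm.
miR-183: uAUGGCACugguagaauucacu
miR-96: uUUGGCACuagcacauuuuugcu
miR-182: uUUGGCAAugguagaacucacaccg
miR-9: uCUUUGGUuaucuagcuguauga
miR-204: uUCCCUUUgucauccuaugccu
miR-211: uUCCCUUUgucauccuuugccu
The seeds of miR-183, miR-96 and miR-182 are near copies of one another, and miR-204 and miR-211 have the same seed. Sharing a seed did not mean sharing a pattern: on the housekeeping scale miR-204 had a log2 ratio of adult neurons over adult MG of -4.18, and miR-211 one of 5.48.

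The raw miRNA counts summed to between 275042 and 696712 per sample, and between 130 and 186 of the 599 miRNA probes passed the background limit of their sample, which was set 2 SD over the average of its 8 negative controls. To set samples side by side, the mean of the negative controls was subtracted and each sample was divided by its summed counts of Actb, B2m, Gapdh and Rpl19. This housekeeping sum ranged from 2498 in adult neurons to 17674 in the 14 DIV MG, and B2m was not above background in either neuron sample. The ligation controls summed to 6888 in P11 neurons and to between 16612 and 25941 in the other samples. Values that do not depend on scaling (shares, ratios within a sample, and ratios relative to the median probe) are given beside the scaled ones for this reason.

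miR-124 was above background in all 6 samples, and its level split them into 2 neuron samples and 4 MG samples. In adult neurons mmu-miR-124 had 103107 raw counts (102479 to 103738). In P11 neurons it had 37741 (37361 to 38124). In adult MG it had 1211 (1144 to 1281) and in P11 MG 1220 (1152 to 1290). The limits of the freshly sorted MG of both ages overlap. In the cultured MG it had 1072 (1009 to 1138) at 8 DIV and 722 (670 to 777) at 14 DIV. The highest negative control of any sample had 97 counts, and the lowest miR-124 count, at 14 DIV, was 30.2 times the mean negative control of its own sample. The plot of levels by sample shows the gap between neurons and MG on each of 3 scales.

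**Figure D1:**
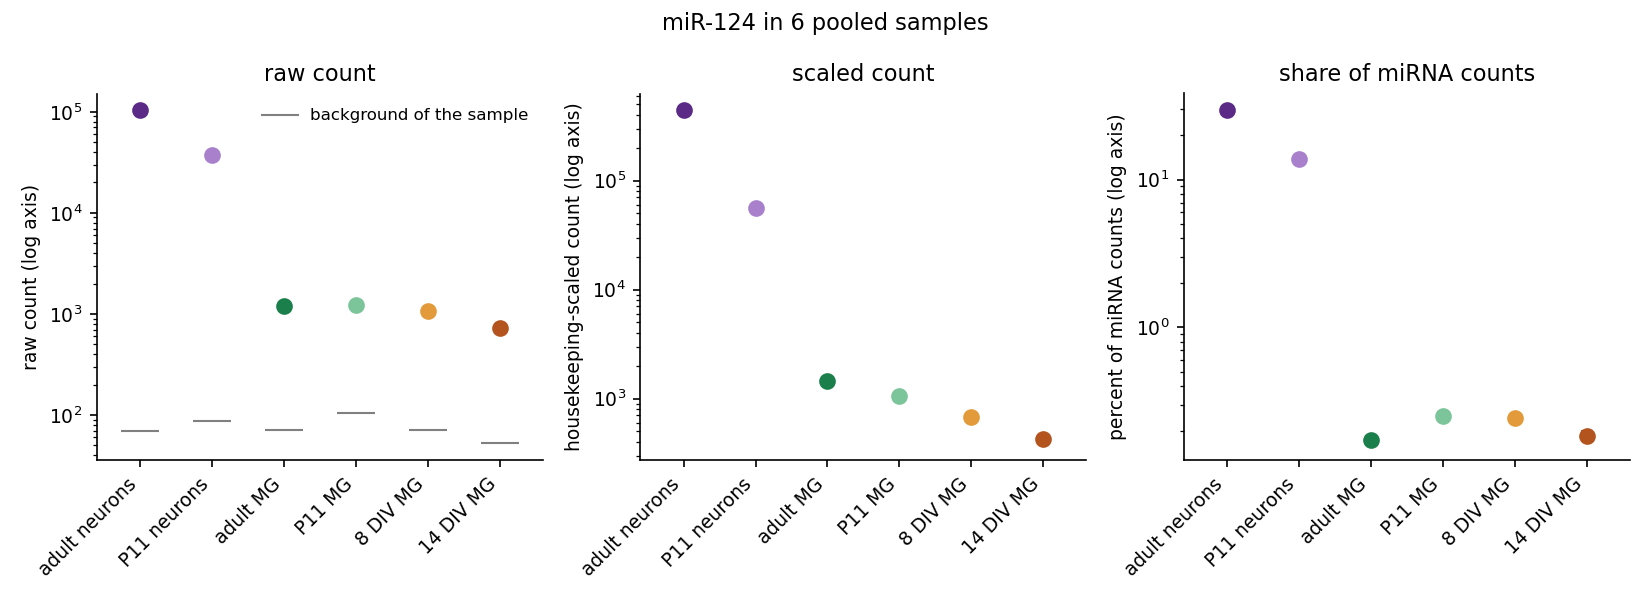
miR-124 in the 6 pooled samples as raw counts, as counts scaled by the housekeeping sum and as percent of all miRNA counts, each on a log axis. Points are single pools, bars are 95% limits of counting error (mostly smaller than the points), and grey dashes mark the background of each sample. The 4 MG samples sit between 722 and 1220 raw counts, below both neuron samples (37741 and 103107).

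As a share of all miRNA counts, miR-124 took 29.5% of adult neurons (29.3 to 29.6, Wilson) and 13.7% of P11 neurons (13.6 to 13.9). In adult neurons it was the highest probe of the panel, ahead of miR-183 with 9.70%. In P11 neurons it stood at rank 2, behind miR-181a, known from neurons and lymphocytes, with 14.1%. Ranks set probes of unknown relative efficiency side by side and are given as counts only. In MG its share was 0.174% in adult (0.164 to 0.184), 0.251% at P11 (0.237 to 0.265), 0.242% at 8 DIV (0.228 to 0.257) and 0.184% at 14 DIV (0.171 to 0.198). The limits overlap for P11 and 8 DIV, and likewise for adult and 14 DIV. Within MG it ranked 34 in adult, 35 at P11, 42 at 8 DIV and 47 at 14 DIV.

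The fraction comparison asks how far the neurons stood above the MG of the same retinas. In the adult retina the scaled level of miR-124 was 440200 in neurons and 1445 in MG, a 305-fold difference (286 to 325), or 8.25 on the log2 scale (8.16 to 8.34). Of the 201 probes above background in either sample, 55.7% were at least 2-fold higher in neurons, and their median log2 ratio was 1.34. Relative to that median, miR-124 was 6.91 log2 higher in neurons, which no scaling alters. In pooled cells, fewer cells of a type and less RNA per cell cannot be told apart.

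At P11 the scaled level was 55800 in neurons and 1062 in MG, a 52.6-fold difference (49.1 to 56.3), or 5.72 on the log2 scale (5.62 to 5.82). Of the 172 probes measured, 26.2% were at least 2-fold higher in neurons and the median was 0.04, so miR-124 lay 5.67 log2 above the median probe. Under the other 8 scalings that gave a value, miR-124 was higher in neurons each time, by 58.6- to 618-fold in the adult and by 20.4- to 136-fold at P11.

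Few probes were higher in neurons than in MG by more than miR-124 was, and only ratios in that direction are counted here. In the adult, 8 probes had a larger ratio: miR-182, miR-183, miR-96, miR-218, miR-375, miR-451, miR-500 and miR-543. Of these, miR-183 (374-fold) and miR-96 (413-fold) were above background in MG, and the size of the other ratios depends on the floor set for a count at background. With every value below background raised to it, 2 probes, miR-183 and miR-96, stayed above miR-124. At P11 the probes with a larger ratio were miR-135b, miR-211, miR-218, miR-451 and miR-500, and of these only miR-211, with 67.6-fold, was above background in MG.

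miR-451, the red blood cell miRNA, gave 1599 counts in adult neurons and 371 in P11 neurons, and 26 and 34 in the MG of these ages, where it was not above background. Of the 2 red blood cell miRNAs, miR-451 and miR-144, both were above background in adult neurons and 1 in P11 neurons, and together they took 0.489% and 0.156% of the miRNA counts there. In the 4 MG samples neither was above background. The 3 members of the photoreceptor cluster took 18.6% of adult neurons and 10.7% of P11 neurons. The part of such cells in the miR-124 ratio was not tested.

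The same pools allow the maturation of each fraction to be compared. miR-124 was 7.89-fold higher in adult than in P11 neurons on the housekeeping scale (7.76 to 8.02), or 2.98 on the log2 scale. Here 73.9% of 157 probes were at least 2-fold higher in adult neurons, the median probe was 1.81 higher, and 28 probes had a larger ratio than miR-124. Some of these 28 were not above background in P11 neurons. With values below background raised to it, 16 probes had a larger ratio and the median was 1.61. Relative to the median without this raising, miR-124 was 1.17 log2 higher in adult neurons, a 2.25-fold difference. Other scalings put it between 1.04-fold (ligation controls, which were low in P11 neurons) and 12.1-fold (Actb alone).

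The ratio of miR-124 to another miRNA in the same sample is free of scaling, and it separated the miRNAs set beside it into those that kept pace with miR-124 and those that did not. Against miR-183, the ratio was 3.04 in adult neurons (2.99 to 3.09) and 3.13 in P11 neurons (3.04 to 3.22), with overlapping limits. Against miR-132, a miRNA induced by neuronal activity, it was 153 in adult and 152 in P11 neurons, again with overlapping limits. Both miRNAs thus differed between the ages by about as much as miR-124.

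Other miRNAs did not keep this ratio, among them miR-9, which was higher in MG than in neurons. Against miR-96, the ratio was 3.51 in adult and 2.31 in P11 neurons, and against miR-182 it was 62.1 and 37.6. Against miR-181a it was 4.42 in adult and 0.971 in P11 neurons, and against miR-9 it was 37.0 and 2.46. For miR-129-3p, a brain miRNA, the order was the opposite, with 35.3 in adult and 109 in P11 neurons. The limits did not overlap for any of these 5 miRNAs.

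In MG, miR-124 was 1.36-fold higher in adult than in P11 cells on the housekeeping scale (log2 0.44, 0.28 to 0.61), under 2-fold. At least 2-fold higher in adult MG were 30.4% of 181 probes, the median was 0.41, and miR-124 lay 0.03 log2 from that median. Under the 10 other scalings the ratio was above 0 in 7 and below 0 in 3, from -0.52 with equal totals without miR-124 to 0.79 with B2m alone. For comparison, 5 of the 7 miRNAs in the study's MG list, which the study chose on these samples, were at least 2-fold higher in adult MG, with a median of 1.72. The adult fractions thus stood further apart than the P11 fractions by 2.53 log2 (2.34 to 2.73). That difference was 1.44 to 3.19 under 7 of the 8 other scalings and -0.51 with the ligation controls, which turned its direction. The plot of ratios under each scaling shows both fraction comparisons above 0 under each of them, and comparisons among MG on both sides of 0.

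**Figure D2:**
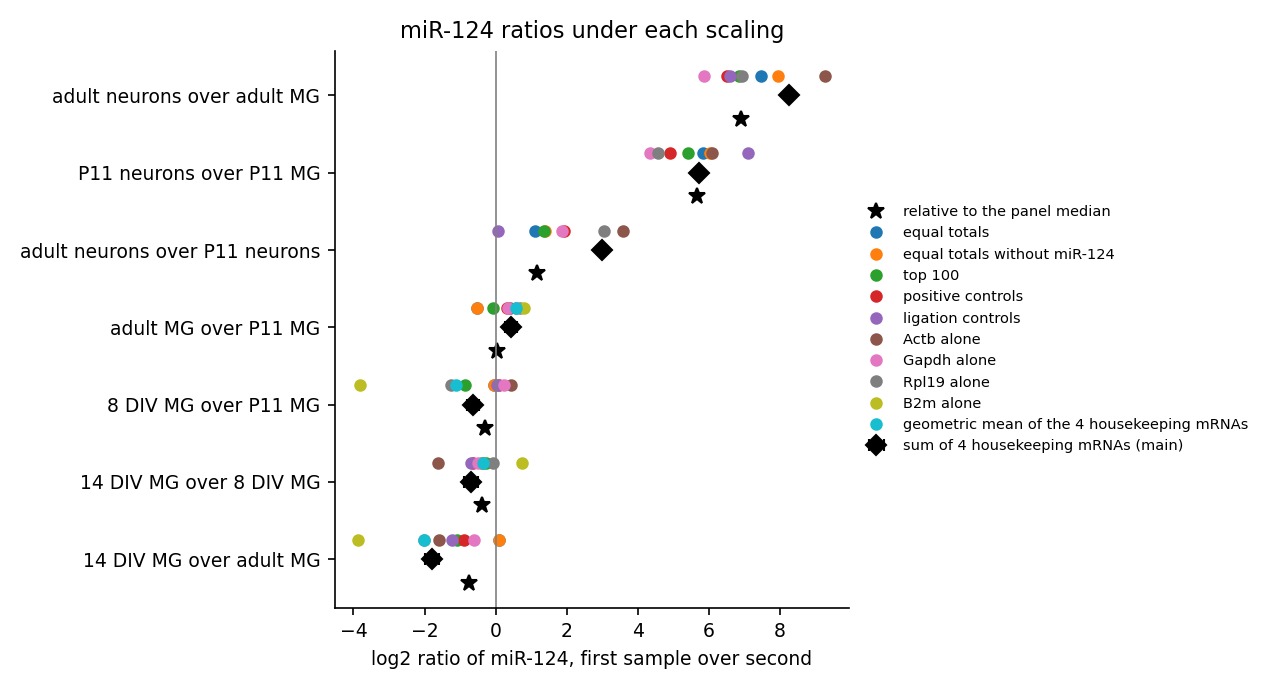
The log2 ratio of miR-124 in 7 comparisons, with the first sample named over the second. Diamonds are the main values (8.25 to -1.78) with limits of counting error, coloured points above them are other scalings, and stars below are the ratio relative to the panel median; only the ratios of neurons over MG or over neurons keep one sign throughout.

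The level that remained in sorted MG was set beside that of other miRNAs in the same pair of samples. In adult MG, miR-124 was at 0.328% of its level in adult neurons (0.308 to 0.350). The sensory cluster was at nearly the same percentage, with miR-183 at 0.268% (0.235 to 0.304) and miR-96 at 0.242% (0.208 to 0.280), and miR-182, not above background in MG, was at most at 0.575%. Here the limits of miR-124 lie just above those of the other two.

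At P11 the same miRNAs were at a higher percentage, still close together. miR-124 was at 1.90% (1.77 to 2.04), miR-183 at 2.51% (2.24 to 2.80), miR-96 at 2.18% (1.96 to 2.41), and miR-182 at most at 3.39%. The limits of miR-124 and miR-96 overlap, and those of miR-183 lie above those of miR-124. miR-211, above background in both fractions of both ages, was at 1.48% at P11 (0.977 to 2.09) and at 2.24% in the adult (1.91 to 2.61).

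The other listed miRNAs of the central nervous system that were above background in MG were at higher percentages. Those that were not, such as miR-218 (at most 5.29% in the adult), miR-7a (at most 3.45%) and miR-129-5p (at most 5.32%), have only an upper bound and may lie as low as miR-124. miR-129-3p was at 2.71% in adult MG and 49.6% in P11 MG, and miR-132 was at 4.38% and 17.7%. miR-181a was at 52.3% and 46.1%, which puts its fractions near one another at both ages. miR-9 was higher in MG, at 676% and 358% of neurons. These percentages all move by 1 common factor under another scaling, so their order within an age does not change with it.

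The paper post-sorted and plated the sorted cells and reported that the MG were highly purified. In both checks a part of the cells in the MG fraction was not tdTomato+. In a separate cross with GFP-labelled rods, it found no such rods among plated tdTomato+ cells. Whether the miR-124 of sorted MG was made there or came with neurons or their fragments was not tested here. The photoreceptor miRNAs miR-183 and miR-96, the red blood cell miRNAs and the MG miRNAs stood as follows beside miR-124. The cluster of miR-183, miR-96 and miR-182 took 0.0973% of the counts of adult MG and 0.261% of P11 MG, with 2 of 3 members above background in each. The study's MG list took 63.7% and 49.6%, with 7 of 7 above background. Neither red blood cell miRNA was above background in adult or P11 MG. Of the 5 miRNAs of microglia and leukocytes, 3 were above background in both, with 0.0675% and 0.131% of the counts together. Of the 2 endothelial miRNAs, miR-126-3p was above background in both, with 208 and 360 counts. Over the panel, 173 of 599 probes were above background in adult MG and 149 in P11 MG.

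**Figure D3:**
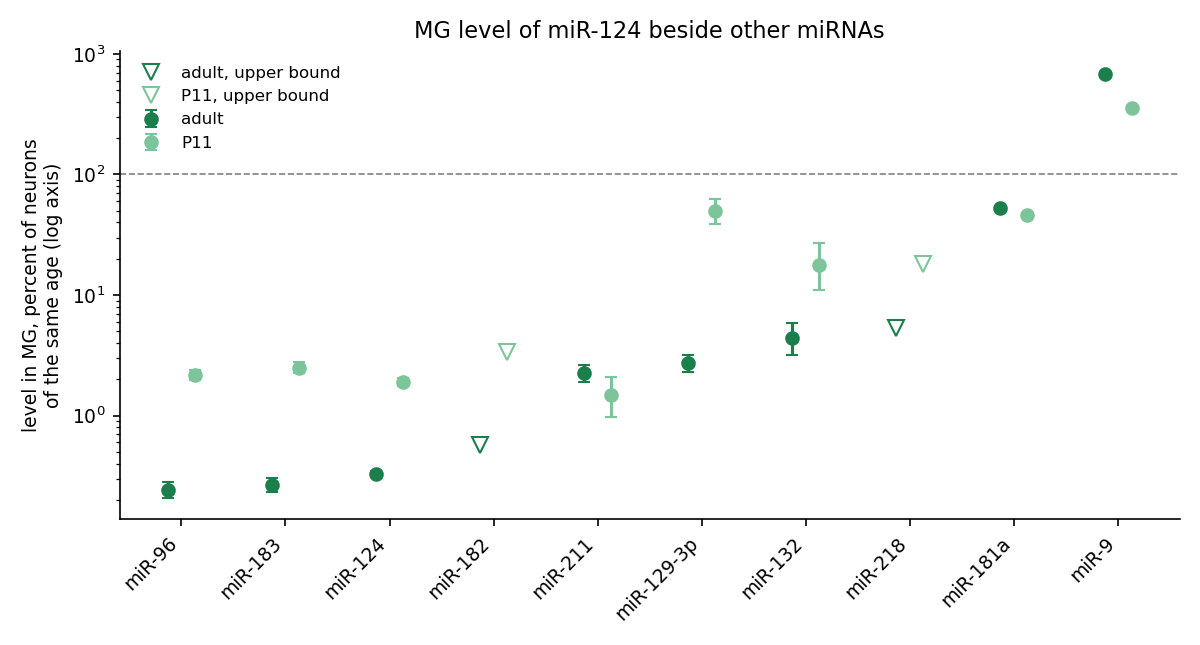
Scaled level in MG as percent of the level in neurons of the same age, on a log axis, for miR-124 and 9 other miRNAs. Circles are measured values with limits of counting error, open triangles are upper bounds where the MG count was not above background, and the dashed line marks equal levels; miR-124 (0.328% in the adult, 1.90% at P11) lies beside miR-96 and miR-183 at both ages.

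Culture was compared first with the P11 MG, the age at which the cultures began. On the housekeeping scale miR-124 was 1.56-fold lower at 8 DIV than in P11 MG (log2 -0.64, -0.82 to -0.47), under 2-fold. Of 196 probes, 20.9% were at least 2-fold lower at 8 DIV, and the median was -0.35. Relative to the median probe, miR-124 was 0.29 log2 lower. The direction was not stable, since it was above 0 in 4 of 10 other scalings, up to 0.42 with Actb alone, and below 0 in 6, down to -3.83 with B2m alone. B2m had 629 counts in P11 MG, 7308 at 8 DIV and 2934 at 14 DIV, and so took a larger part of the housekeeping sum of the cultures.

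From 8 to 14 DIV miR-124 was 1.62-fold lower (log2 -0.69, -0.89 to -0.49), with 26.9% of 208 probes at least 2-fold lower and a median of -0.31. It lay 0.39 log2 below the median probe, and B2m alone, of 10 scalings, gave a ratio above 0. Set against adult MG, the age-matched comparison of the study, the 14 DIV MG had 3.43-fold less (log2 -1.78, -1.97 to -1.58), while 50.7% of 213 probes were at least 2-fold lower and the median was -1.04. Relative to the median probe the difference was 0.74 log2. Under equal totals, which compares shares, it was 0.082 in the opposite direction.

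Against the photoreceptor miRNAs, miR-124 was a larger part in culture than in P11 MG, but less clearly so against adult MG. The ratio of miR-124 to miR-183 was 2.37 in P11 MG (2.04 to 2.77), 7.62 at 8 DIV (5.94 to 9.91) and 5.81 at 14 DIV (4.44 to 7.72). The ratio to miR-96 was 2.02 in P11 MG (1.75 to 2.34), 3.70 at 8 DIV (3.07 to 4.48) and 5.72 at 14 DIV (4.37 to 7.57). For both miRNAs the limits of P11 MG do not overlap those of either culture. In adult MG the ratio to miR-183 was 3.73 (3.13 to 4.46), which overlaps 14 DIV at its limit and lies below 8 DIV. The ratio to miR-96 there was 4.76 (3.93 to 5.80), which overlaps both cultures, so for miR-96 the difference was seen against P11 MG alone. On the housekeeping scale, miR-183 was 2.32 log2 lower and miR-96 1.51 log2 lower at 8 DIV than in P11 MG. As a percentage of P11 neurons, miR-124 was at 1.22% at 8 DIV and 0.755% at 14 DIV, miR-183 at 0.502% and 0.407%, and miR-96 at 0.763% and 0.306%.

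Against miR-129-3p and miR-132, which were higher at 8 DIV than in P11 MG, the ratio moved the other way. On the housekeeping scale miR-129-3p was not higher at 14 DIV (246) than in P11 MG (254). The ratio of miR-124 to miR-129-3p was 4.18 in P11 MG, 1.24 at 8 DIV and 1.71 at 14 DIV. The ratio to miR-132 was 16.3 in P11 MG, 1.21 at 8 DIV and 3.40 at 14 DIV. miR-132 itself had 122 raw counts in P11 MG, 893 at 8 DIV and 229 at 14 DIV. miR-218, a miRNA of motor and other neurons, was not above background in either sorted MG sample, with 26 and 32 counts, and had 234 counts at 8 DIV and 151 at 14 DIV.

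Against the miRNAs with the highest counts in sorted MG, the ratio went both ways. Of the 10 highest probes of P11 MG, miR-124 had a larger ratio than in P11 MG to 6 at 8 DIV and to 7 at 14 DIV, and a smaller one to 4 and to 3. These 10 were picked by their counts in P11 MG, a sample of this comparison, and do not stand for the panel. Of all 196 probes measured in P11 MG or at 8 DIV, 67 had a lower ratio of 8 DIV over P11 MG than miR-124. The ratio of miR-124 to miR-9 was 0.0131 in P11 MG (0.0122 to 0.0140), 0.0369 at 8 DIV (0.0342 to 0.0397) and 0.0603 at 14 DIV (0.0548 to 0.0662). Its ratio to miR-181a was 0.0400 in P11 MG, 0.183 at 8 DIV and 0.135 at 14 DIV. Its ratio to miR-204 was 0.0118 in P11 MG, 0.0207 at 8 DIV and 0.0178 at 14 DIV. Its ratio to miR-125b-5p, known from neural progenitors and glia, went the other way, with 0.0388 in P11 MG (0.0361 to 0.0416), 0.0195 at 8 DIV (0.0182 to 0.0209) and 0.0117 at 14 DIV (0.0107 to 0.0127). In neurons the same ratios were far larger, and the plot of within-sample ratios shows all 6 samples for 6 of these miRNAs.

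**Figure D4:**
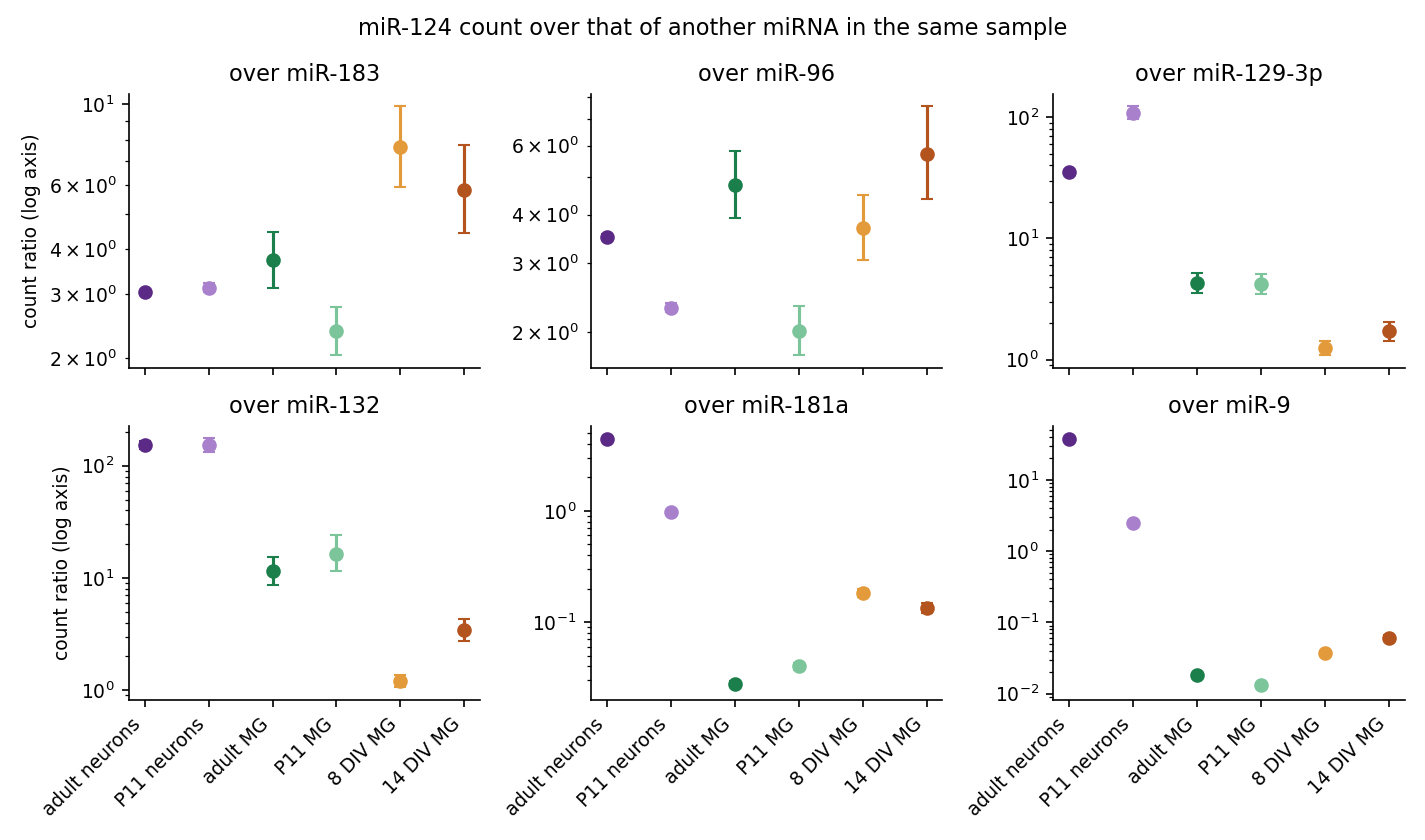
Background-subtracted count of miR-124 divided by that of another miRNA in the same sample, on log axes that differ between panels. Points are single pools and bars are limits of counting error. Over miR-183 and miR-96 the cultured MG lie above P11 MG (2.37 and 2.02). Only 8 DIV over miR-183 lies above adult MG (3.73, and 4.76 over miR-96) beyond the limits. Over miR-129-3p and miR-132 the cultured MG lie below P11 MG (4.18 and 16.3).

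Several lists of miRNAs for other cell types also differed between sorted and cultured MG, but not all in the same direction. In pooled RNA, a change in the number of such cells and a change in these miRNAs per MG cell cannot be told apart. The 5 miRNAs of smooth muscle, pericytes and fibroblasts (miR-143, miR-145, miR-199a-3p, miR-199a-5p and miR-214) were all at background in both sorted MG samples, 4 were above it at 8 DIV and 5 at 14 DIV. Together they took 0.0258% of the counts in adult MG, 0.0467% in P11 MG, 0.794% at 8 DIV and 4.50% at 14 DIV. The defining miRNA of this group, miR-143, had 24 counts in P11 MG and 3167 at 14 DIV. In the order adult MG, P11 MG, 8 DIV and 14 DIV, the microglia and leukocyte miRNAs took 0.0675%, 0.131%, 0.145% and 0.138%. In this order, those of endothelium took 0.0336%, 0.0796%, 0.0212% and 0.0189%. Those of pigmented epithelium took 0.0611%, 0.0370%, 0.199% and 0.224%, and those of other epithelium 0.0629%, 0.0961%, 0.0972% and 0.0763%. The study's MG list took 33.4% at 8 DIV and 32.5% at 14 DIV. The part of these differences in the culture values of miR-124 was not tested.

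The deposited normalized values gave another order for the cultures, because they carry values of other probes. In the deposited table miR-124 stands at 2098 at 8 DIV and at 4357 at 14 DIV, where the raw counts rebuild to 867 and 536, so the deposited values are 2.42 and 8.12 times the rebuilt ones. In both culture columns the value on the row of miR-124 is that of the probe for miR-1937a and miR-1937b, with 2544 and 5696 raw counts, and the value that belongs to miR-124 stands on the row of miR-350, at 866 and 536. In each culture column 16 probes had a deposited value that did not match the rebuilt one. The same held for 42 probes in each sorted MG column of 1 of the 2 data sets, but miR-124 is not among these. Where the values of the other probes came from is not given here. On the deposited values miR-124 would be 1.55-fold higher at 8 DIV than in P11 MG, 2.08-fold higher at 14 than at 8 DIV and 2.37-fold higher at 14 DIV than in adult MG, each opposite to the raw counts on the housekeeping scale. The deposited values for sorted MG and neurons match the raw counts, with 304.8-fold for the adult fractions and 52.6-fold for those of P11.

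miR-124 belongs to a list of 18 miRNAs of neurons in the central nervous system, of which 17 are on the panel. Of 12 measured in the adult fractions, 10 were at least 2-fold higher in neurons and 1, miR-9, was lower, with a median of 4.18 against 1.34 for all 201 probes, of which 55.7% were higher. At P11, 7 of 11 were higher and miR-9 was lower, with a median of 1.12 against 0.04 for all probes, of which 26.2% were higher. With values below background raised to it, the counts were 10 of 12 and 5 of 11, beside 66.7% and 21.5% of all probes. The medians were then 3.28 and 0.99 against 1.67 and 0.15. Several of the listed miRNAs were low: miR-129-5p, miR-137, miR-7a, miR-218 and miR-873 had between 80 and 308 counts in adult neurons, and miR-128, common in the forebrain, had 44 counts there and was not above background.

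Between adult and P11 neurons, 10 of 12 listed miRNAs were at least 2-fold higher in the adult and none was lower, with 73.9% of all probes higher and a median of 2.29 against 1.81. With values below background raised the count was again 10, beside 77.1% of all probes, and the median of 1.54 was no longer above that of all probes, 1.61. At 8 DIV against P11 MG, 4 of 11 were higher and 3 lower, where 19.9% and 20.9% of all probes were, with a median of 0.15 against -0.35. With values below background raised, these were 3 and 3, beside 12.8% and 22.4% of all probes. The median turned to -0.64, the value of miR-124 itself, against -0.46 for all probes. From 8 to 14 DIV, 6 of 12 were lower and none was higher, where 26.9% of all probes were lower, with a median of -0.96 against -0.31. With values raised, 4 of 12 were lower, beside 22.1% of all probes, and the median was -0.71 against -0.33.

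A list of 9 miRNAs known as targets of REST, of which 8 are on the panel, did not move as a block with miR-124. Of 6 measured in the adult fractions, 3 were higher in neurons (miR-124, miR-132 and miR-135b) and 1, miR-9, was lower, beside 55.7% of all probes higher. At 8 DIV against P11 MG, 4 of 6 were higher (miR-132, miR-135b, miR-29a and miR-29b), beside 19.9% of all probes, miR-9 was lower, and miR-124 did not pass 2-fold. miR-135b had 27 counts in P11 MG, below background, and with values raised 3 of 6 were higher, beside 12.8% of all probes. From 8 to 14 DIV, 4 of 6 were lower, beside 26.9% of all probes. miR-29a and miR-29b, known for repressing collagen mRNAs, had 1297 and 260 counts in P11 MG and 8432 and 4220 at 8 DIV.

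Among 200 probes above background in at least 2 samples, the Pearson r of log2(scaled count + 1) with miR-124 over the 6 samples had a median of 0.58 and quartiles of -0.13 and 0.84. All points share the scaling of their sample, and 2 of the 6 come from the same cultures, so r is a description. The 5 highest were miR-381 (0.994), miR-451 (0.993), miR-183 (0.992), miR-96 (0.992) and miR-1198 (0.992). The counts of miR-381 ran only from 61 to 121, close to background, and miR-451 was above background in the neuron samples alone. miR-183 ranged from 144 to 33941 counts and miR-96 from 146 to 29415, both with 6 of 6 samples above background. Under equal totals 3 of these 5 were again among the highest, and with the 4 sorted samples alone also 3, while by Spearman rank 1 was.

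The 5 lowest were miR-28 (-0.982), miR-100 (-0.960), miR-574-3p (-0.950), miR-450a-5p (-0.888) and miR-152 (-0.833). miR-100, a member of the study's MG list, had 23 counts in adult neurons and 62 in P11 neurons, neither above background, and between 2053 and 4910 in the 4 MG samples. miR-28 had 62 and 143 counts in the neurons and between 273 and 656 in MG. The plot of these patterns shows that the probes most like miR-124 share its step between neurons and MG and differ in what followed in culture.

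**Figure D5:**
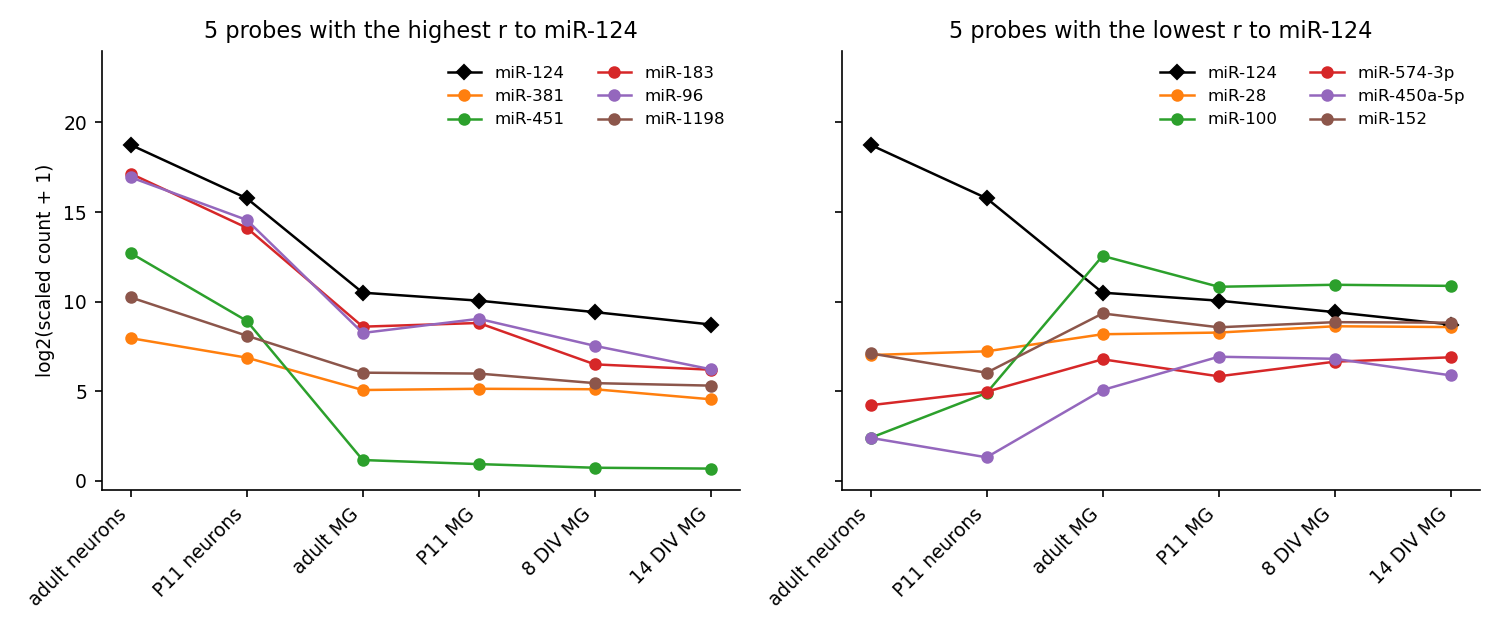
log2(scaled count + 1) in the 6 pooled samples for miR-124 (black diamonds) and, left, the 5 probes with the highest and, right, the 5 with the lowest Pearson r to it. Lines join the samples of one probe and carry no time order; r ran from 0.992 to 0.994 on the left and from -0.982 to -0.833 on the right.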

How the data were processed

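The deposited raw table holds 1 whole-number count per probe and pooled sample, which the authors obtained on the nCounter mouse panel, with no normalization applied. The other deposited table is read here as a score: the authors normalized it in nSolver with 4 housekeeping mRNAs, 8 negative and 6 positive controls, in 2 data sets, so that 8 columns hold 6 samples. Rebuilt from the raw table within 2 counts or 1 percent, it gave the exchanged values named in the report. Exact Poisson (counts, ratios) and Wilson (shares) limits at 95% cover counting error only; the depth per sample is the miRNA total. Scaled counts are raw counts minus the mean negative control, at least 1, over the background-subtracted housekeeping sum relative to its mean over samples, on 1 scale for all samples. A probe was measured if above background in either sample, and 2-fold was the size rule. A pseudocount of 1 was used for r. miRNAs named are miR-124, members of the lists, the 5 highest and 5 lowest r, the probes with larger ratios between fractions, and exchange partners. The member and the lists were chosen with earlier results of these data known. Alternatives were other scalings, backgrounds and the deposited values; raising values to background was added after the data were seen. The ratio code was tested on simulated data. Loci and sequences are from the GRCm38.p6 tables of RefSeq. Python 3.11.15 with numpy 2.4.6, pandas 2.3.3, scipy 1.17.1 and matplotlib 3.10.9 was used. RT-qPCR values were not used here.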

Additional observations from a re-analysis of the deposited data

How the results depend on the processing

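All values here are log2 ratios of miR-124 unless named otherwise, and with 1 pool per condition none has a replicate check. No paired analysis was possible because each condition has 1 pooled sample and no test was made, and no replicate could be left out. B2m alone and the geometric mean of the 4 housekeeping mRNAs give no value where neurons are involved, since B2m was not above background there. In the order adult neurons over adult MG, P11 neurons over P11 MG, and adult over P11 neurons, equal totals gave 7.45, 5.83 and 1.10, equal totals without miR-124 7.95, 6.04 and 1.39, the top 100 probes 6.85, 5.41 and 1.37, the positive controls 6.50, 4.90 and 1.92, the ligation controls 6.58, 7.09 and 0.063, Actb alone 9.27, 6.09 and 3.59, Gapdh alone 5.87, 4.35 and 1.88, and Rpl19 alone 6.92, 4.56 and 3.06.

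Among MG, adult over P11 was -0.52 with equal totals, with or without miR-124, -0.068 with the top 100, 0.79 with B2m alone and 0.70 with Rpl19 alone. For 8 DIV over P11 MG the values were -0.043 with equal totals, with or without miR-124, -0.86 with the top 100, 0.086 with the positive and 0.038 with the ligation controls, 0.42 with Actb, -3.83 with B2m, 0.24 with Gapdh and -1.24 with Rpl19 alone, -1.10 with the geometric mean and 0.64 with the deposited values. For 14 over 8 DIV they were -0.39 with equal totals, with or without miR-124, -0.28 with the top 100, -1.61 with Actb, 0.75 with B2m and -0.063 with Rpl19 alone, -0.35 with the geometric mean and 1.05 with the deposited values. For 14 DIV over adult MG the direction turned with equal totals, with or without miR-124 (0.082), and with the deposited values (1.24); it was -1.07 with the top 100, -0.89 with the positive and -1.23 with the ligation controls, -3.86 with B2m, -0.61 with Gapdh and -2.005 with Rpl19 alone, and -2.02 with the geometric mean. The deposited culture values carry another probe's value; for the other settings the cause was not tested. The share of miR-124 was 30.7% and 14.7% of adult and P11 neurons with background subtracted, and 30.6% and 14.7% over mouse probes above background. Of the 5 probes most like miR-124, 1 was shared by Spearman rank, 3 with equal totals and 3 over the 4 sorted samples. The other 36 values moved by less than their counting error. Depth limits the MG ratios to miR-183 and miR-96, which rest on 144 to 629 counts.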
